A study of Mus musculus with 6 samples.

Results

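The genes described here are 10 genes that leukocytes use to adhere and to shape their actin cytoskeleton: Ptprc, Itgb2, Itgam, Fermt3, Lcp1, Myo1f, Coro1a, Was, Hcls1 and Arhgdib. They were taken by name, with earlier results of these data known, and all 10 were found among the 54532 genes of the deposited count table. The table holds 6 RNA-seq libraries of MSCs, bone-forming stromal cells grown from alveolar bone, the part of the mouse jaw around the tooth sockets. They comprise 3 wild-type (WT) and 3 Ccrl2-KO libraries, the knockout lacking an atypical chemokine receptor. By the series description, cells of both genotypes were studied with TNFα as an inflammatory stimulus and under osteogenic induction, and replicates are biological. Strain, age, TNFα dose, the knockout allele and the number of animals are not given in the sources used here, so p-values may measure only the spread between cultures. The headers of the count columns add Ctrl to each name, and what it stands for was not given there. Whether these libraries are of cells treated with TNFα therefore cannot be settled here, and every value below describes the genotypes in cultures whose treatment is uncertain.

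Leukocytes adhere through integrins of the beta 2 class, which are pairs of an alpha and a beta chain at the cell surface. Signals inside the cell open these integrins through talin and kindlin-3, and the opened integrin is tied to a cortex of branched and bundled actin. Most of the proteins that do this in blood cells have relatives that do similar work in other tissues, so a culture of stromal cells usually carries the relatives while the leukocyte forms mark blood-derived cells in it.

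Total counts lay between 16114974 and 18616433 per library, and 13705 genes had enough counts to be tested. The deleted gene, Ccrl2, had 4, 3 and 0 counts in WT replicates 1 to 3 and 0 in each KO library, which is too few to check the genotype labels. KO replicate 2 was unlike the rest, with 16428 genes detected against 18928 to 19372 elsewhere and 2.32% of its counts mitochondrial against 1.09% to 1.56%. Stromal transcripts dominated all libraries. The 15 stromal markers summed to between 60345 and 91313 CPM (counts scaled to 1000000 per library), all 15 were tested, and 1 of them, the surface glycoprotein gene Thy1, was called lower in KO (log2 fold change -0.81 ± 0.10, SE, edgeR adjusted p = 0.00141). Pdgfra (-0.44 ± 0.11), Col3a1 (-0.51 ± 0.16) and Col1a1 (-0.33 ± 0.19) did not pass. DESeq2 and edgeR without the filter on low counts called Pdgfra and Col3a1 lower, and limma-voom did not.

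In KO cultures 7 of the 10 genes fell, by a log2 value of between 1.99 and 3.71. They were Ptprc, Itgb2, Itgam, Fermt3, Lcp1, Myo1f and Hcls1. Coro1a and Was had negative values and did not pass the test, and Arhgdib, by far the most abundant, had a positive value and did not pass either. Over all tested genes, 2.31% were called lower, 0.365% higher and 2.67% in either direction. Every KO library lay below every WT library in 11.0% of all tested genes and in 8 of the 10 here, and above in 9.90% and in 0 of the 10. The median log2 fold change was -2.49 over the 10 genes and 0.02 over all tested genes. As the 10 genes were chosen with earlier results of these data known, these counts and shares are description only. Calls are at an adjusted p under 0.05 in edgeR's quasi-likelihood test, with Benjamini-Hochberg adjustment over all tested genes. In bulk RNA, fewer cells of a type and less RNA per cell cannot be told apart. Entry into the test needed about 0.592 CPM in 3 libraries. Ptprc, Lcp1, Itgb2 and Arhgdib reached this in all KO libraries, while the other 6 entered through their WT levels, so for these a lower KO level was partly fixed by the filter.

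**Figure D1:**
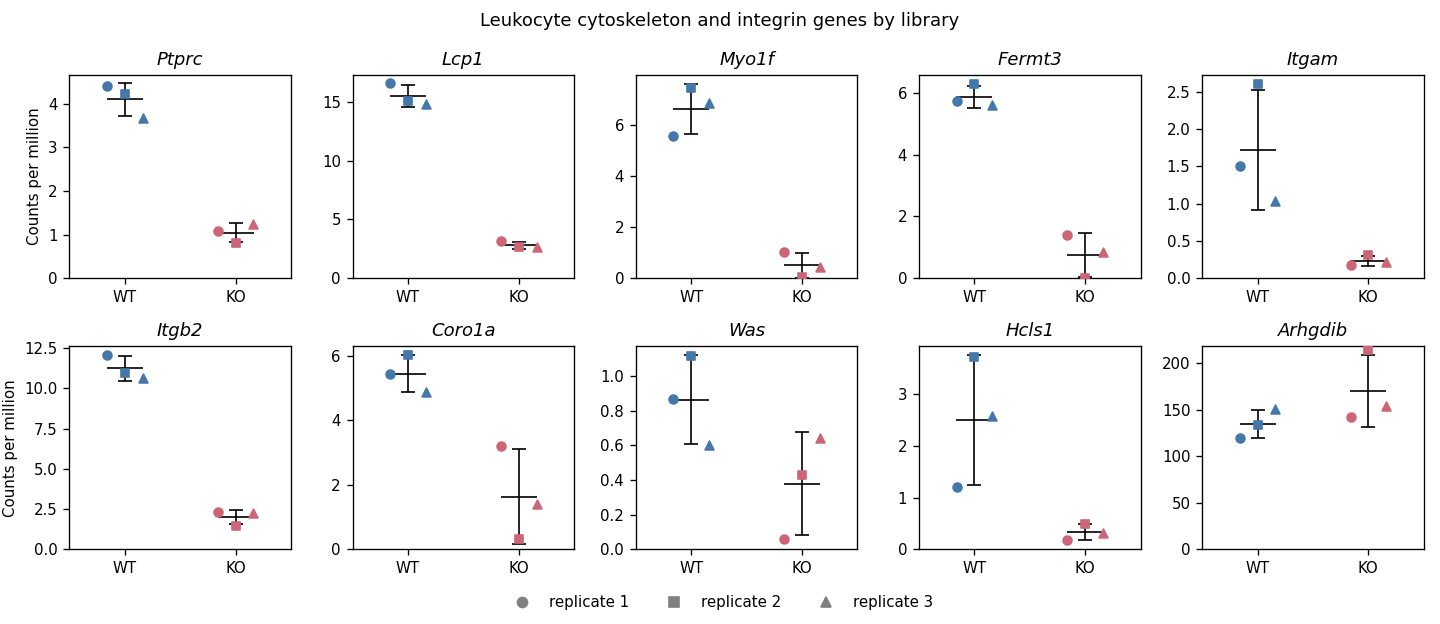
CPM (counts scaled by the library total) for each of the 10 genes, with 1 panel and 1 linear axis per gene. Points are the 3 WT and 3 KO libraries, with 1 symbol per replicate, and bars are mean ± SD. The KO points lie below all WT points in every panel except Was and Arhgdib, and KO replicate 2 is the highest Arhgdib library.

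The sequence before the start is shown for the 5 genes with a window wholly before the annotated gene, 4 of them called lower and Arhgdib not. RefSeq promoter windows (build GRCm38.p6) were matched by symbol for 9 of the 10 genes, Itgb2 being the other one, and the 250 bases before each start are used. Each line reads 5′ to 3′ on the gene's own strand, with capitals for GAGGAA, the core of the box that the myeloid factor PU.1 binds, or TGTGGT, the core that RUNX factors bind, on either strand.
Itgam: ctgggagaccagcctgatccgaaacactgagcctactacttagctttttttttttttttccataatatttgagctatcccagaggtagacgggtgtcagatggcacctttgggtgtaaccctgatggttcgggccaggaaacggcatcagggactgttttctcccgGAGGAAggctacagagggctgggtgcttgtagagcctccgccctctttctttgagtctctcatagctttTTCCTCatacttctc
Fermt3: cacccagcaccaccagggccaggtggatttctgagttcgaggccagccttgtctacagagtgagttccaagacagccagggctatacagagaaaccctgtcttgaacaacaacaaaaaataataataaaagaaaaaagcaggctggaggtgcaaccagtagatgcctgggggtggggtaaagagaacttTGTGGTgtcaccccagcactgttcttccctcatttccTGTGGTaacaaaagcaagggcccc
Myo1f: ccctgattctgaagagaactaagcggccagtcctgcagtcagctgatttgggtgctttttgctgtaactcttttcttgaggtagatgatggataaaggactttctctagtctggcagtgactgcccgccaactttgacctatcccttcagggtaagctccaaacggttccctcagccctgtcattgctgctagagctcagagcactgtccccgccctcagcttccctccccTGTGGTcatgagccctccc
Hcls1: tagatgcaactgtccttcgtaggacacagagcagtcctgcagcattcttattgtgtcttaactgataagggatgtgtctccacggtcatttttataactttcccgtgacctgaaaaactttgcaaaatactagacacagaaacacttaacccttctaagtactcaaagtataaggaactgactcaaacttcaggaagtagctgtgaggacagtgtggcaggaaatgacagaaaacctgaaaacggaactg
Arhgdib: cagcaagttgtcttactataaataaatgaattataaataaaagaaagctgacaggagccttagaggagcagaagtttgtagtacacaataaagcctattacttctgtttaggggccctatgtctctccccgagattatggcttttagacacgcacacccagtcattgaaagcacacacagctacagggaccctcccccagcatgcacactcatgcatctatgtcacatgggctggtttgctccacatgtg
The Itgam window is chr7:128062390-128062639 on the plus strand, the Fermt3 window chr19:7019470-7019719 on the minus strand, the Myo1f window chr17:33555457-33555706 on the plus strand, the Hcls1 window chr16:36934733-36934982 on the plus strand, and the Arhgdib window chr6:136941900-136942149 on the minus strand. In Itgam the GAGGAA core begins 84 bases before the start and its reverse complement 15 bases before it. Fermt3 holds TGTGGT at 61 and 24 bases before the start, and Myo1f at 19 bases. The Hcls1 window has neither core, and the windows of Lcp1 and Coro1a have neither as well. The Arhgdib window shown has neither, but GAGGAA occurs in a window of a further start of that gene. The cores do not overlap each other. Over the 9 matched genes, 3 (Ptprc, Itgam and Arhgdib) held GAGGAA in some window, against 25.5% of 10003 tested genes with a window, and 3 (Myo1f, Fermt3 and Was) held TGTGGT, against 12.6%. By window, GAGGAA was in 3 of 14 windows of these genes and in 23.3% of all 32851 windows, and TGTGGT in 3 of 14 and 14.0%. Of the other motifs searched on both strands, TATAAA was in 3 of the 14 windows (12.4% of all), GGGCGG in 5 (32.7%) and CCAAT in 0 (33.8%). A match describes the letters in the window and shows no binding.

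Ptprc encodes CD45, the transmembrane phosphatase found on nearly all blood cells other than mature red cells, and it keeps Src-family kinases ready to signal. The gene (ENSMUSG00000026395, chromosome 1, 138062861 to 138175708, minus strand) had 76, 68 and 67 counts in WT replicates 1 to 3 and 18, 13 and 23 in KO replicates 1 to 3. The groups did not overlap and each was tight, with a coefficient of variation of 9.26% in WT and 21.2% in KO. Mean levels were 4.10 ± 0.38 CPM in WT and 1.04 ± 0.22 in KO (SD over 3 libraries), a log2 fold change of -1.99 ± 0.33 (SE, edgeR adjusted p = 0.00862). The call was lost without WT replicate 1 or WT replicate 2 (edgeR adjusted p = 0.0688 and 0.0581), with values of -1.93 and -1.97.

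Itgb2 encodes CD18, the beta chain shared by the leukocyte integrins. It lies on chromosome 10 (ENSMUSG00000000290, 77530252 to 77565708, plus strand) and had 209, 177 and 194 counts in WT and 38, 24 and 42 in KO replicates 1 to 3. All KO libraries were far below WT and the lowest was KO replicate 2. The level went from 11.2 ± 0.77 to 2.01 ± 0.46 CPM, 5.59-fold lower in KO (log2 fold change -2.50 ± 0.24, edgeR adjusted p = 0.000346), and the call held in each of the 15 alternatives run.

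Itgam encodes CD11b, the alpha chain that joins CD18 to form the complement receptor Mac-1 of macrophages, monocytes and neutrophils. Its counts were low, 26, 42 and 19 in WT and 3, 5 and 4 in KO replicates 1 to 3. The KO libraries were alike, whereas WT varied (1.72 ± 0.80 CPM, coefficient of variation 46.8%). The log2 fold change was -2.86 ± 0.59 (edgeR adjusted p = 0.0300), and leaving out any single library other than KO replicate 2 ended the call, with the highest adjusted p, 0.240, without WT replicate 2. Limma-voom did not call it either (adjusted p = 0.0722). The gene (ENSMUSG00000030786, chromosome 7, 128062640 to 128118491, plus strand) is overlapped on the same strand over 55809 bases by the annotated gene Gm49368, which had 0 or 1 count per library. How reads in shared positions were assigned was not given in the sources used here, so the Itgam level is uncertain. The other alpha chains of beta 2 integrins had few counts too. Itgal, the CD11a chain of LFA-1, had 34, 12 and 21 counts in WT and 8, 0 and 1 in KO (-2.84 ± 0.89, edgeR adjusted p = 0.161). Itgax, the CD11c chain of dendritic cells and some macrophages, chosen after its values were seen, had 2, 0 and 6 counts in WT and 0, 10 and 0 in KO, and was too low to test, as was Itgad with a single count in 1 library.

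Fermt3 encodes kindlin-3, the kindlin of blood cells, without which their integrins cannot be opened. Its counts were nearly the same in the WT libraries (99, 101 and 102) and were 23, 0 and 16 in KO replicates 1 to 3. The groups lay well apart, and the KO spread came from KO replicate 2, where a count of 0 allows up to 0.185 CPM. The log2 fold change was -2.97 ± 0.66 (edgeR adjusted p = 0.0474), from 5.86 ± 0.36 CPM in WT to 0.750 ± 0.70 in KO. This call sits at the threshold. It was lost without any WT library or without KO replicate 3 (adjusted p from 0.134 to 0.206), with library totals in place of TMM scaling (0.0530), with DESeq2 (0.167) and with limma-voom (0.0533). The gene lies on chromosome 19 (ENSMUSG00000024965, 6998958 to 7019469, minus strand) and shares 87 bases with Trpt1 on the opposite strand, which had 67 to 100 counts.

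Lcp1 encodes L-plastin, which bundles actin filaments in leukocytes. It had the lowest p of the 10 genes. Counts were 287, 243 and 271 in WT and 52, 43 and 49 in KO replicates 1 to 3, with a coefficient of variation of 6.19% and 10.4%. KO replicate 2, which departed from the others in several genes here, was within the KO range for Lcp1. The level fell from 15.5 ± 0.96 to 2.81 ± 0.29 CPM, 5.52-fold lower in KO (log2 fold change -2.49 ± 0.19, edgeR adjusted p = 0.00013), and the call held in each of the 15 alternatives. The gene lies on chromosome 14 (ENSMUSG00000021998, 75131101 to 75230842, plus strand).

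Myo1f encodes a single-headed class I myosin of leukocytes that links membrane to actin, and it had the largest fold change of the set. It had 96, 120 and 125 counts in WT and 17, 1 and 8 in KO replicates 1 to 3. The KO libraries differed among themselves many-fold, with KO replicate 2 close to 0, and all lay far below WT. The mean went from 6.62 ± 0.96 to 0.507 ± 0.49 CPM, 13.1-fold lower in KO (log2 fold change -3.71 ± 0.54, edgeR adjusted p = 0.00405), and the call held in the 15 alternatives, with values from -4.69 to -3.22. Its position is chromosome 17, 33555719 to 33607764 on the plus strand (ENSMUSG00000024300).

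Coro1a encodes coronin-1A, an actin-binding protein of blood cells that works with the Arp2/3 complex. It had 94, 97 and 89 counts in WT and 53, 5 and 26 in KO replicates 1 to 3. The WT libraries were alike, and the KO libraries spread more widely than for Ptprc, Itgb2 or Lcp1, although none reached WT. The log2 fold change was -1.75 ± 0.55 and did not pass (edgeR adjusted p = 0.166). The outcome depended on the KO libraries and the tool. It passed without KO replicate 1 (-2.67, adjusted p = 0.0319) or KO replicate 2 (-1.28, adjusted p = 0.0303), in edgeR without the filter on low counts (adjusted p = 4.98e-05) and in DESeq2 (adjusted p = 0.0328). Coro1a (ENSMUSG00000030707, chromosome 7, 126699773 to 126707787, minus strand) shares 26 bases with Bola2 on the opposite strand, which had 146 to 319 counts.

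Was and Hcls1 act on the branching of actin by Arp2/3. Was encodes WASP, the blood-cell activator of that complex, and Hcls1 encodes HS1, a cortactin relative that stabilises the branches. Was had 15, 18 and 11 counts in WT and 1, 7 and 12 in KO replicates 1 to 3. The groups overlapped, since KO replicate 3 stood above WT replicate 3, and the log2 fold change of -1.17 ± 0.70 did not pass (edgeR adjusted p = 0.458). With 1 to 18 counts per library, its value is imprecise. Hcls1 had 21, 60 and 47 counts in WT and 3, 8 and 6 in KO. Its groups did not overlap, though WT replicate 1 was well below the other WT libraries, and it fell by a log2 value of 2.91 ± 0.58 (SE, edgeR adjusted p = 0.0254). The Hcls1 call was lost without WT replicate 2 or 3 or KO replicate 1 or 3 (adjusted p from 0.0759 to 0.177) and with limma-voom (0.0762). Was is on chromosome X (ENSMUSG00000031165, 8081453 to 8090498, minus strand) and Hcls1 on chromosome 16 (ENSMUSG00000022831, 36934983 to 36963212, plus strand).

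Arhgdib encodes a GDP dissociation inhibitor, which holds small GTPases inactive in the cytosol, and is best known from blood cells. It did not share the pattern of the other genes. Counts were 2064, 2162 and 2747 in WT and 2346, 3470 and 2871 in KO replicates 1 to 3. The groups overlapped, and the highest library was KO replicate 2, the one in which Ptprc, Itgb2, Fermt3, Myo1f and Coro1a were lowest. Within KO, Itgam (0.308 CPM) and Hcls1 (0.493 CPM) were instead highest in that library, Lcp1 was lowest in KO replicate 3 and Was in KO replicate 1. Its level was 135 ± 15.5 CPM in WT and 170 ± 38.5 in KO (log2 fold change 0.32 ± 0.16, edgeR adjusted p = 0.390), with positive values from 0.11 to 0.42 over the 15 alternatives, none of which passed. Per kilobase of gene length its WT level was 78.9 CPM, against 3.68 for Itgb2, 2.27 for Fermt3, 1.96 for Coro1a, 1.63 for Lcp1, 1.35 for Myo1f, 0.992 for Hcls1, 0.362 for Was, 0.342 for Itgam and 0.224 for Ptprc. In a library it made up 69.1% to 74.8% of the counts of the 10 genes in WT and 91.9% to 97.0% in KO. The gene (ENSMUSG00000030220, chromosome 6, 136923655 to 136941899, minus strand) is overlapped on the opposite strand over 18068 bases by Pde6h, which had 0 to 5 counts.

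Because of Arhgdib, the summed level of the 10 genes did not separate the genotypes. It was 189 ± 14.4 CPM in WT and 180 ± 35.6 in KO, with overlapping groups (two-sided exact permutation test, p = 0.70, where the smallest p that 3 against 3 libraries can give is 0.10). The other 9 genes, a subset chosen after the values were seen, summed to 923, 926 and 925 counts in WT replicates 1 to 3 and to 208, 106 and 186 in KO replicates 1 to 3. The WT libraries were close to one another and the KO libraries were not. This was 53.9 ± 3.40 CPM in WT and 9.70 ± 3.03 in KO, 5.55-fold lower in KO.

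The make-up of these 9 genes was compared as shares of their counts. Itgb2 took 20.9% of their counts in WT and 20.8% in KO when libraries were pooled, and Lcp1 28.9% and 28.8%. In the same pooled counts of WT and KO, Ptprc took 7.61% and 10.8%, Coro1a 10.1% and 16.8%, and Was 1.59% and 4.0%. Pooled shares were 12.3% and 5.2% for Myo1f, 10.9% and 7.8% for Fermt3, 4.61% and 3.4% for Hcls1, and 3.14% and 2.4% for Itgam. Coro1a took 9.62% to 10.5% in the WT libraries, but 25.5% (95% exact Clopper-Pearson interval 19.7% to 32.0%) in KO replicate 1, 4.72% (1.55% to 10.7%) in KO replicate 2 and 14.0% (9.34% to 19.8%) in KO replicate 3. Its share was thus above the WT range in KO replicate 1 by more than counting error. Fermt3 took 10.7% to 11.0% in WT and 0 of 106 counts in KO replicate 2. This allows a share of up to 2.83% by the floor of 3 counts, and up to 3.42% by the 95% Clopper-Pearson interval. Myo1f took 10.4% to 13.5% in WT, 8.17% and 4.30% in KO replicates 1 and 3, and 0.943% (0.0239% to 5.14%) in KO replicate 2. Lcp1 took 40.6% (31.1% to 50.5%) in KO replicate 2, against 26.2% to 31.1% in WT. Shares also varied within WT. Hcls1 took 2.28% (1.41% to 3.46%) in WT replicate 1 and 6.48% (4.98% to 8.26%) in WT replicate 2, with intervals that do not overlap, and Itgam took 2.05% to 4.54%. Intervals and floors cover counting error only. In KO replicate 2, Fermt3, Myo1f and Coro1a had 0, 1 and 5 counts, while Lcp1 had 2.65 CPM, against 3.15 and 2.63 in KO replicates 1 and 3.

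**Figure D2:**
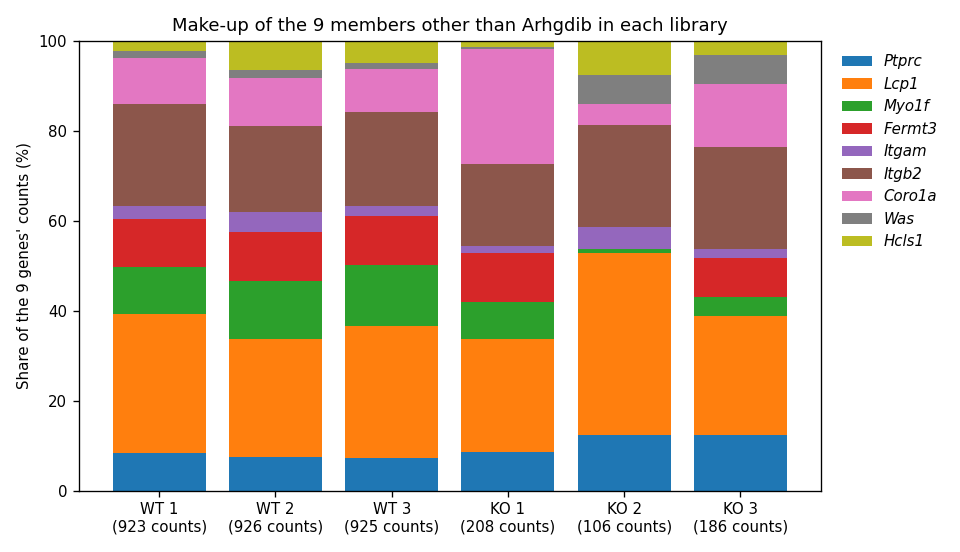
Share of each gene in the counts of the 9 genes other than Arhgdib, as stacked bars in percent for each library, with the number of counts under each bar. The Hcls1 share differs among the WT bars (2.28% to 6.48%), Coro1a is widest in KO replicate 1 (25.5%), and Fermt3 is missing and Lcp1 widest (40.6%) in KO replicate 2.

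The leukocyte genes were set beside broadly expressed relatives, since a ratio within a library does not depend on how libraries are scaled. None of the 11 relatives with enough counts passed (edgeR, 0 of 11 called, 1 with an unadjusted p under 0.05, which DESeq2 called and limma-voom did not). That gene was Fermt2, kindlin-2 of adherent cells (0.47 ± 0.11, edgeR adjusted p = 0.0611). Log2 fold changes of the relatives lay between -0.19 and 0.47. Per kilobase, the beta 1 integrin gene Itgb1 stood 204-fold above Itgb2 in WT and 1322-fold in KO. Pls3, the plastin of non-blood cells, stood 76.1-fold above Lcp1 in WT and 501-fold in KO, and Fermt2 stood 22.5-fold and 247-fold above Fermt3. Myo1e stood 9.06-fold above Myo1f in WT and 129-fold in KO. Cortactin, Cttn, stood 94.1-fold and 634-fold above Hcls1, the alpha V integrin gene Itgav 86.3-fold and 711-fold above Itgam, and the phosphatase gene Ptpra 45.8-fold and 163-fold above Ptprc. The ratio of the leukocyte gene to its relative, with 0.5 counts added, was lower in every KO library than in any WT library in 9 of 11 pairs, including Coro1a against both Coro1b and Coro1c. The exceptions were Was against Wasl, the N-WASP gene, and Arhgdib against Arhgdia, its broadly expressed counterpart, which stood 4.20-fold above Arhgdib in WT and 3.25-fold in KO. The median difference over the 11 pairs was -2.60 on the log2 scale. As the relatives differed little between the groups, these ratios largely repeat the values of the leukocyte genes and are not separate support. Pls1 had 0 to 4 counts and Fermt1 0 in every library, so no ratio to them is read.

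**Figure D3:**
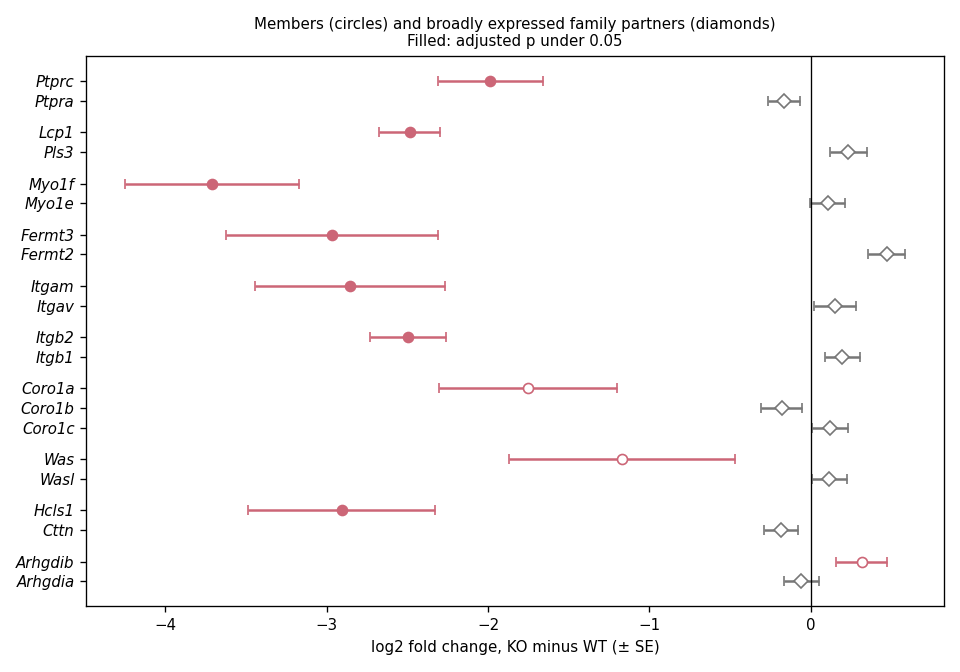
Log2 fold change (KO minus WT, ± SE, edgeR) of the 10 genes as circles and of their 11 tested broadly expressed relatives as diamonds, filled where the adjusted p was under 0.05. The relatives lie between -0.19 and 0.47, Arhgdib lies among them at 0.32, and the other 9 genes lie between -3.71 and -1.17.

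Other genes of the same machinery were taken from lists of known function, and those that passed the count filter were tested. For this list and those that follow, the shares over all tested genes were 2.31% called lower and 0.365% higher. List genes that entered the test only through their WT levels had a lower KO level partly fixed by the filter, as above. Of 28 tested haematopoietic regulators of actin and small GTPases, 13 were called lower and 1 higher, with a median log2 fold change of -1.36. Cotl1, a coactosin-like actin-binding protein (-1.38 ± 0.18, edgeR adjusted p = 0.00224), Nckap1l, the blood-cell subunit of the WAVE complex (-2.14 ± 0.31), and Cyth4, an exchange factor of ARF GTPases (-2.20 ± 0.33), had the smallest p. Arhgap9, a GTPase-activating protein, chosen after its values were seen, had 16, 15 and 13 counts in WT and 0 in each KO library, at least 14.6-fold lower when the KO libraries together are set to the 3 counts that a count of 0 allows. The gene called higher was Fgd3, an exchange factor of Cdc42 family GTPases (0.73 ± 0.11, edgeR adjusted p = 0.0060, also chosen after its values were seen). Capg, an actin-capping protein and the most abundant gene of the list per kilobase, stood at 210 ± 13.5 CPM in WT and 227 ± 31.2 in KO (0.09 ± 0.12).

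Of 20 tested kinases, phosphatases and adaptors that act with CD45 and integrins, 4 were called lower and 0 higher (edgeR, 0 higher also at an unadjusted p under 0.05, and in DESeq2 and limma-voom), with a median of -0.86. They were Laptm5, a lysosomal membrane protein of blood cells (-2.43 ± 0.25, edgeR adjusted p = 0.000487), Inpp5d, the lipid phosphatase SHIP1 (-1.67 ± 0.30), Ptpn6, the phosphatase SHP-1 (-2.71 ± 0.57), and Pik3ap1, an adaptor of PI 3-kinase (-3.28 ± 0.75). Csk, the broadly expressed kinase that opposes CD45 on Src-family kinases, was the most abundant per kilobase and did not pass (-0.30 ± 0.16, edgeR adjusted p = 0.420). Of 11 tested leukocyte integrin and adhesion genes 1 was called lower, the tetraspanin gene Cd53 (-1.53 ± 0.33, edgeR adjusted p = 0.0391), with a median of -0.72 for the list. Selplg, the selectin ligand PSGL-1, had a value of -1.61 ± 0.43 and did not pass (edgeR adjusted p = 0.0923). DESeq2 called Selplg lower and limma-voom did not. Cd44, a hyaluronan receptor of many cell types, was the most abundant (0.21 ± 0.11).

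Broadly expressed adhesion and actin genes had few calls. Of 23 tested genes of integrin activation and adhesion sites, 1 was called lower, Fyb, an adaptor of blood cells (-2.55 ± 0.45, edgeR adjusted p = 0.0140), with a median of -0.01. Parvb, an integrin-linked kinase partner, had -0.43 ± 0.14 and did not pass, and Flna, filamin A, was the most abundant (0.08 ± 0.11). Of 16 other integrin subunits, 1 was called higher, Itga11, the collagen-binding alpha 11 chain of fibroblasts (0.81 ± 0.14, from 99.2 ± 12.5 to 177 ± 23.8 CPM, edgeR adjusted p = 0.00949), with a median of 0.05. Itga10, another collagen-binding chain (-0.40 ± 0.11), and Itgb1 (0.20 ± 0.11) did not pass. Of 37 general actin genes 0 were called by edgeR, DESeq2 called 2 higher and limma-voom 0. At an unadjusted p under 0.05 in edgeR, 3 of the 37 were lower and 8 higher. Over all tested genes, 1981 of 13705 had such a p in either direction. The median of the 37 was 0.16, and 29 of the 37 values were positive, against 7158 of 13705 over all tested genes. Every KO library lay above every WT library in 8 of the 37 and below in 3, against 9.90% and 11.0% of all tested genes. The smallest p were those of the tropomyosin gene Tpm1 (0.43 ± 0.11, edgeR adjusted p = 0.0695), the myosin light chain gene Myl9 (0.41 ± 0.12) and the Arp2/3 subunit gene Arpc5 (0.43 ± 0.15), and Actb was the most abundant (0.04 ± 0.10).

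**Figure D4:**
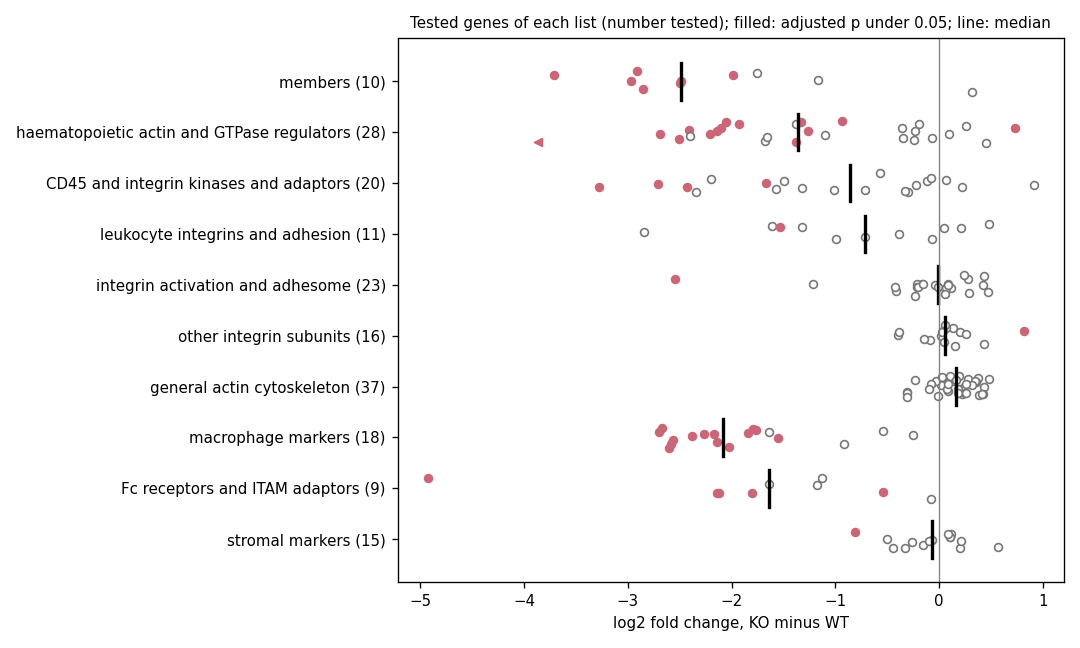
Log2 fold changes (KO minus WT, edgeR) of the tested genes of 10 lists, 1 point per gene, filled where the adjusted p was under 0.05, with the list median as a black line. Arhgap9, at 0 counts in KO, is drawn as a triangle at its bound of -3.87. The 10 genes (median -2.49) and macrophage markers (median -2.08) lie mostly below -1, while the general actin genes (median 0.16) and other integrin subunits (median 0.05) lie around 0.

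Markers of macrophages moved with these genes. Of 18 tested macrophage markers, 14 were called lower and 0 higher (edgeR, 0 higher also at an unadjusted p under 0.05, and in DESeq2 and limma-voom), with a median of -2.08. Their summed level, over all 22 markers listed, was 411 to 470 CPM in WT and 127 to 131 CPM in KO. The KO libraries lay close together in this sum, whereas in the sum of the 9 leukocyte genes they ranged from 6.53 to 12.6 CPM. As a share of the macrophage marker counts, the 9 genes came to 13.0%, 12.7% and 10.8% in WT replicates 1 to 3 and to 9.89%, 5.0% and 7.68% in KO replicates 1 to 3. The groups did not overlap in this share, nor in the shares of Lcp1, Myo1f, Fermt3 and Itgb2 taken alone. They overlapped for Ptprc, Itgam, Coro1a, Was and Hcls1. The mean share of Coro1a was 1.23% in WT and 1.28% in KO, and that of Was 0.196% and 0.291%. For the rest of the 9 genes the mean share was lower in KO. The 9 genes leave out Arhgdib, a choice made after the values were seen. The most abundant marker was the lysozyme gene Lyz2, at 172 ± 23.9 CPM in WT and 48.6 ± 10.1 in KO. Mrc1, the mannose receptor (-2.61 ± 0.15), and Mpeg1, perforin-2 (-2.57 ± 0.23), had the smallest p beside Lyz2 (-1.84 ± 0.16). The part of macrophage content in the falls of the 10 genes was not tested. Among Fc receptors, ITAM adaptors and other receptors listed with them, 5 of 9 tested genes were called lower (median -1.64). Fcgr2b (-4.93 ± 0.53), Fcgr3 (-1.80 ± 0.21) and Trem2 (-2.14 ± 0.33) came first, and Sirpa (-0.54 ± 0.11) was most abundant. Trem2 here and Spi1 below are also counted among the macrophage markers called lower. Among Toll-like receptors and their partners 2 of 12 were called lower, Tlr13 (-2.29 ± 0.31) and Tlr7 (-2.66 ± 0.43), with a median of -0.25. Tlr8 (-2.61 ± 0.61, edgeR adjusted p = 0.0531) did not pass, though DESeq2 called it lower, and Unc93b1 (-0.28 ± 0.15) was the most abundant. Of 16 tested haematopoietic transcription factors, 2 were called lower, Spi1, which encodes PU.1 (-2.17 ± 0.38, edgeR adjusted p = 0.0126), and Gata2 (-1.59 ± 0.26), with a median of -0.34. Ikzf1 (-1.95 ± 0.49, edgeR adjusted p = 0.0724) did not pass, and Cebpb was the most abundant (-0.72 ± 0.19). DESeq2 called both Ikzf1 and Cebpb lower, and limma-voom neither.

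Markers of other blood cells were mostly at or near 0 in both groups. Of 14 neutrophil markers, 5 had 0 counts in all 6 libraries (S100a9, Ly6g, Mpo, Ltf and Retnlg), and the list summed to 2.78 to 3.67 CPM in WT and 1.05 to 2.18 in KO. For T and NK cells, 5 of 12 markers, Cd3e and Cd8a among them, had 0 counts throughout, and the sums were 0.372 to 1.15 and 0.555 to 2.12 CPM. For B cells, Ms4a1 and Pax5 had none, and the list had sums of 0.174 to 1.12 and 0 to 0.740 CPM. Dendritic cell markers summed to 1.85 to 3.23 and 1.73 to 1.88 CPM with 4 of 9 at 0, Flt3 and Clec9a among them. Mast cell and basophil markers (4 of 7 at 0) reached at most 0.591 CPM, erythroid markers (3 of 6 at 0) 1.02 CPM, and megakaryocyte and platelet markers (3 of 8 at 0) 4.06 CPM. The few genes of these lists that were tested did not pass, with edgeR values of -2.06 ± 0.86 for Lcn2, -0.03 ± 0.55 for Mmp9, -1.22 ± 0.56 for Zbtb46, 0.90 ± 0.62 for Trac and 0.44 ± 0.34 for Itga2b. Of those not tested, Pf4 had counts of 7 to 30 across WT libraries and 0 to 3 across KO libraries, and edgeR without the filter called it lower. Over all libraries Vpreb1 had 0 to 9, Mcpt8 0 to 7 and Epor 0 to 9. The endothelial list stood at 12.7 to 17.8 CPM in WT and 16.6 to 20.9 in KO, and neither of its tested genes passed, Kdr (-1.23 ± 0.45, edgeR adjusted p = 0.241) or Erg (0.48 ± 0.18, adjusted p = 0.262). The osteoclast list stood at 213 to 233 and 261 to 274 CPM, with 2 of 10 markers, Calcr and Dcstamp, at 0. Most of that sum was Ctsk, a protease gene that stromal cells express too (0.33 ± 0.10, edgeR adjusted p = 0.141). DESeq2 called Ctsk higher and limma-voom did not. Tnfrsf11a, the receptor RANK, had 37, 37 and 83 counts in WT and 18, 20 and 16 in KO (-1.51 ± 0.42, edgeR adjusted p = 0.103). Its groups did not overlap, and it was called lower by DESeq2, by edgeR without the filter and without KO replicate 2. Oscar had a value of -0.77 ± 0.67 (adjusted p = 0.603). The pericyte list summed to 4653 to 5371 and 6304 to 7389 CPM, most of it Acta2, and its Rgs5 was called higher (1.14 ± 0.21, edgeR adjusted p = 0.0168), while Acta2 (0.48 ± 0.12) and Mcam (0.52 ± 0.15) did not pass. Acta2 was called higher by DESeq2, and both by edgeR without the filter or without KO replicate 2, but neither by limma-voom.

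The genes whose profile over the 6 libraries was most like the mean standardised profile of the 10 genes were, by Pearson's r, Adcyap1r1 (0.998), a receptor of the neuropeptide PACAP, Ifi207 (0.997), Fstl1 (0.995), Zfp438 (0.995), Cdhr1 (0.994), Ebf2 (0.993), Cd68 (0.993) and C3 (0.993). This describes likeness only, as the libraries fall into the genotype groups and any gene that separates them steadily scores high. Adcyap1r1 had 209, 263 and 216 counts in WT and 45, 35 and 64 in KO (log2 fold change -2.29 ± 0.24), and Cd68, a lysosomal protein of macrophages, had 185, 222 and 224 and 61, 61 and 97 (-1.55 ± 0.21). Fstl1, a secreted glycoprotein of stromal cells, differed far less (-0.30 ± 0.10, edgeR adjusted p = 0.184). Among the 10 genes Ptprc was nearest the mean profile, at 0.989, and Was (0.666) and Arhgdib (-0.655) were farthest from it.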

How the data were processed

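Per the labels' protocols, RNA was purified with TRIzol and sequenced from NEBNext Ultra RNA libraries, with no statement that strand was kept. HISAT2, StringTie, SAMtools and mm9 are named in the submitters' processing notes, with no versions or roles. No source used here names the read counter. The deposited table gives raw counts per gene, whole numbers that the authors had not normalized. It also gives a deposited gene length in bases (other than the counts, used per kilobase only). Its positions for Itgam, Fermt3, Hcls1 and Arhgdib begin at the base next to their GRCm38.p6 RefSeq windows, so positions are given as GRCm38.

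Libraries were grouped by sample title and genotype. Levels are CPM by library total, with 3 counts, the limit a count of 0 allows, worth 0.161 to 0.186 CPM. Replicates were compared by chi-square per gene (4.37 to 57.3 within groups), and none repeated another. KO was tested against WT with edgeR 4.0.16 (quasi-likelihood, robust, TMM, minimum count 10, total 15) in R 4.3.3, after a test on simulated data. Benjamini-Hochberg adjustment covered 13705 genes, with a threshold of 0.05. SE is the log2 fold change over the square root of F. Alternatives were other scalings, filters, DESeq2 1.42.0, limma-voom (limma 3.58.1), edgeR without robust moderation, a replicate block and each library left out. The 10 genes and all lists were chosen with earlier results of these data known. Named genes are the 10, their relatives, the 3 of smallest p and the most abundant per kilobase in each list, and the 8 most alike in profile with at least 2 CPM. Pik3ap1, Itgad and the markers named as having no counts fall outside this rule and were chosen after their values were seen.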

Additional observations from a re-analysis of the deposited data

How the results depend on the processing

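The signs of the log2 fold changes of the 10 genes were the same in every alternative run. Lcp1, Itgb2 and Myo1f were called in all 15 alternatives. The count of these genes called lower was 7 and became 4 with limma-voom, and with single libraries left out it ranged from 3 (without WT replicate 2) to 8 (without KO replicate 2). The count over all genes was 366 and became 883 without the filter on low counts and 656 with DESeq2, and ranged from 147 to 610 with single libraries left out. Among genes of the other lists 41 were called lower, and 23 to 52 with single libraries left out. Over all tested genes 316 (2.31%) were called lower, and 135 to 492 with single libraries left out. Without the filter 29.2% of calls were higher in KO, against 13.7%. The summed level of the 10 genes (log2 difference -0.085) ranged from -0.24 to 0.015 with single libraries left out and changed sign without KO replicate 1 (0.015), and the cause was not tested. Without Arhgdib, an alternative added after seeing the data, the sum stayed between -2.74 and -2.26.

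Deviations of same-numbered libraries correlated at 0.137, -0.106 and -0.192, so no pairing by replicate number was seen. Weak correlations cannot exclude pairing here, with 3 libraries per group and KO replicate 2 unlike the rest. With the replicate block 331 genes and 6 of the 10 were called, Fermt3 being lost (adjusted p = 0.178), and not every library correlated best with its own number. Depth limits Was and Itgam most, with at most 18 and 42 counts in any library.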
